A study of Homo sapiens with 5 samples.

Results

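The genes described here are the human zinc finger genes whose symbols run from ZNF500 to ZNF899, chosen by their symbol alone and not by any measured value. The deposited tables listed 187 of them among 12468 genes in all. Current RefSeq symbols and the tables together name 243 genes in this range, so that 76.95% were listed and 56 were not listed in the tables used here. 1 gene stands as ZNF875 in the table of the knockout and under its older symbol HKR1 in the others, and was counted by its gene identifier.

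RNA was sequenced from HLF cells, a human hepatocellular carcinoma line, in 5 groups of 1 sample each, all untreated. USP28-Ctrl cells carried a control guide RNA (sgCtrl) and USP28-KO cells a guide against USP28, a deubiquitinase that removes ubiquitin from nuclear proteins. The other 3 groups were USP28-KO cells that received, from a lentiviral pRRL vector, no insert (the control vector), USP28-WT or USP28-M, a mutant labelled Mono that cannot form dimers. Every group but USP28-Ctrl therefore carried the knockout guide. Knockout cells were picked as single clones, so that a clone and the loss of USP28 cannot be told apart, and the reconstituted protein was driven by a viral vector and not by its own locus. The comparison of these groups asks what USP28, and its dimerization, change in gene expression.

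The tables hold 1 value per gene that describes a level, the authors' average log2 CPM, a gene's read count scaled to the total of its library, over the libraries of a fit. The table of USP28-KO against USP28-Ctrl comes from 1 fit, named the knockout fit here, and lists 11102 genes. Identical averages stand in the table of USP28-WT and that of USP28-M, which therefore come from another common fit, named the reconstitution fit, with 12342 genes. All other columns are the authors' own comparisons and were not used, so what follows describes how strongly these genes were expressed in the cells of each fit, with no value per group, no error between replicates and no test. To set genes side by side, the log2 of the longest transcript in kilobases was subtracted, which gives log2 CPM per kb.

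Most of the genes encode C2H2 zinc finger proteins. In each finger a pair of cysteines and a pair of histidines hold a zinc ion, and a short helix between them reads a few bases of DNA, so that fingers in a row can read a long site. Many of the proteins also carry a KRAB domain at the N-terminus, which binds the corepressor TRIM28. TRIM28 in turn brings the histone methyltransferase SETDB1 and heterochromatin proteins, and the best known targets of this pathway are transposable elements. The KRAB genes stand in clusters, above all on chromosome 19, where neighbours arose by duplication.

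The repeated unit of the family can be seen in neighbouring fingers of ZNF569, a KRAB gene, and ZNF787, which has no KRAB pattern and the highest level per kb of all the genes described. Both lie on chromosome 19. Each line is the coding strand of the GENCODE 29 transcript, 5′ to 3′, from the first cysteine codon of a finger to the base before the first cysteine codon of the next. Capitals mark the codons of the 2 cysteines and 2 histidines. The lines are coding bases 562 to 645 and 646 to 729 of ZNF569, and 202 to 285 and 286 to 369 of ZNF787.
ZNF569 finger 1: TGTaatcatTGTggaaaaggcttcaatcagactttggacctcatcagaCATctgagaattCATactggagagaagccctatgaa
ZNF569 finger 2: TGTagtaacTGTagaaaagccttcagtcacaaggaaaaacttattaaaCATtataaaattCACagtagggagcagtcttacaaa
ZNF787 finger 1: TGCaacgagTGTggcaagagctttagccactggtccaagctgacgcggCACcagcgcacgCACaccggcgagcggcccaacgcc
ZNF787 finger 2: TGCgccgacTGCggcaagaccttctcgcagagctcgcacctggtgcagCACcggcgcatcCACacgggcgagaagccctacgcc

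All 4 units were 84 bases, or 28 residues, long and held the capitals at the same places. Finger 2 of ZNF569 had the same base as finger 1 at 54 of the 84 positions, and finger 2 of ZNF787 had the same base as its own finger 1 at 59. Finger 1 of ZNF787 matched finger 1 of ZNF569 at 46 positions. The genes spelled this shared frame with different bases: 40.5% and 32.1% of the bases of the ZNF569 units were G or C, against 66.7% and 69.0% in ZNF787.

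The same repeat ran through the family. The 187 listed genes held a median of 10 fingers of the pattern of 2 to 4 residues between the cysteines, 12 in the middle and 3 to 5 between the histidines, with a range of 0 to 30. Of 1812 pairs of neighbouring fingers, 1552 (85.7%) started exactly 28 residues apart. The linker of the TGEKP type that joins fingers in this family was found 969 times, in 151 genes. A KRAB pattern was found in 115 genes (61.5%) and the pattern of a SCAN domain, which pairs such proteins, in 1. Among the 54 genes not listed for which a reading frame was at hand, 33 (61.1%) had a KRAB pattern and the median finger number was also 10. Listed and not listed genes thus had nearly the same makeup by these counts.

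ZNF646 had the most fingers (30), followed by ZNF850 (29) and ZNF845 (26). In ZNF646, 3 of 29 neighbouring pairs had the spacing of 28 residues, whereas all 25 pairs of ZNF845 had it. At the other end, 4 genes had no match. They include ZNF503, a regulator of development whose finger is atypical, ZNF720, and ZNF738, whose short frame of 137 residues held a KRAB pattern. The finger count is thus that of 1 pattern in the longest reading frame and not a count of all zinc fingers.

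The zinc finger genes were weakly expressed in both fits. In the knockout fit 154 were listed, with a median of 1.71 log2 CPM per kb, against 3.47 for all genes of that fit, a level 3.39 times lower. In the reconstitution fit all 187 were listed, with a median of 1.07 against 3.07, or 3.99 times lower. These medians stood at percentile 15.3 and 17.4 of their tables. Only 18 of 154 genes (11.7%) lay above the median of all genes in the knockout fit and 27 of 187 (14.4%) in the reconstitution fit. Under the lower quartile of all genes lay 99 of them (64.3%) and 117 (62.6%), and above the upper quartile lay 3 and 6. The low end is set by the authors' filter, since genes under it are not in the tables.

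The family on the other side of the symbol boundary was placed alike. Of the genes ZNF1 to ZNF499, 166 were listed in the knockout fit, with a median of 1.88 log2 CPM per kb, and 195 in the reconstitution fit, with a median of 1.02. Above the median of all genes lay 7.23% and 8.72% of them. Among ZBTB genes, which pair zinc fingers with a BTB domain, 14.3% of 35 and 20.5% of 39 lay above it. None of the ZSCAN genes (13 and 16 listed) or of the 6 ZKSCAN genes did. The ZFP genes were placed higher, with 41.7% of 12 and 37.5% of 16 above it.

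ZNF787 led both fits, at 5.58 log2 CPM per kb in the knockout fit and 5.64 in the reconstitution fit. ZNF581 (4.96 and 4.81), ZNF664 (4.90 and 4.65), ZNF768 (4.62 and 4.73) and ZNF580 (4.61 and 5.05) followed in both fits, though in another order. None of these genes had a KRAB pattern. In the knockout fit the 10 highest also included ZNF511 (4.55), ZNF638 (4.46), ZNF622 (4.37), ZNF655 (4.35) and ZNF598 (4.29). ZNF622 is a factor for the maturation of the large ribosomal subunit, ZNF598 a ubiquitin ligase that marks collided ribosomes, and ZNF638 a nucleic acid binding protein that takes part in the silencing of retroviral DNA. Among the 10 highest of the reconstitution fit, ZNF672 (3.87) and ZNF579 (3.79) stood in place of ZNF638 and ZNF655. Exons of ZNF581, ZNF664, ZNF768, ZNF580, ZNF511, ZNF638 and ZNF655 overlap those of another gene on the same strand, so that their reads may be shared. Those of ZNF787 overlap none.

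The lowest in the knockout fit were ZNF778 (-0.45 log2 CPM per kb), ZNF641 (-0.45), ZNF555 (-0.42), ZNF519 (-0.22) and ZNF844 (-0.11), and each of them had a KRAB pattern. In the reconstitution fit the lowest were ZNF681 (-1.65), ZNF813 (-1.53), ZNF546 (-1.50), ZNF774 (-1.31) and ZNF597 (-1.18), of which ZNF774 and ZNF597 had none. ZNF681 lay at 0.55 in the knockout fit and ZNF546 at 0.15, and the others were listed in the reconstitution fit only. The longest transcripts of the 5 lowest genes had 6620 to 11031 bases in the knockout fit and 5524 to 7987 in the reconstitution fit. The median over the zinc finger genes was 4.21 and 4.12 kb, and a longer transcript gives a lower level per kb. In log2 CPM without length scaling, ZNF835 was lowest in the knockout fit (2.45) and ZNF547 in the reconstitution fit (0.88). ZNF778 had 3.01 in the knockout fit and ZNF681 1.05 in the reconstitution fit.

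Genes with a KRAB pattern had lower levels than those without it. Genes without it are those whose longest reading frame did not match the pattern, and some of them may still carry the domain. With it, the median was 1.40 log2 CPM per kb over 88 genes of the knockout fit, and without it 2.48 over 66 genes, a difference of -1.08 (2.12 times lower). In the reconstitution fit the medians were 0.48 over 115 genes and 2.23 over 72, a difference of -1.75 (3.37 times lower). The ranges overlapped widely, from -0.45 to 3.83 with the pattern and from 0.56 to 5.58 without it in the knockout fit. Above the median of all genes lay 3 of 88 genes with the pattern (3.41%) and 15 of 66 without it (22.7%) in the knockout fit, and 4 of 115 (3.48%) and 23 of 72 (31.9%) in the reconstitution fit. With the median instead of the longest transcript as the length, the knockout difference was -0.51.

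On chromosome 19, which held 101 of the 187 genes (54.0%), the difference between genes with and without the pattern was -1.48 in the knockout fit and -1.98 in the reconstitution fit. On the other chromosomes it was -1.01 and -1.42. The median of the genes with the pattern was 1.29 on chromosome 19 and 1.45 elsewhere in the knockout fit, and 0.31 and 0.80 in the reconstitution fit. Without the pattern, chromosome 19 gave 2.77 and the others 2.46 in the knockout fit. The KRAB difference therefore had the same direction on and off chromosome 19.

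**Figure D1:**
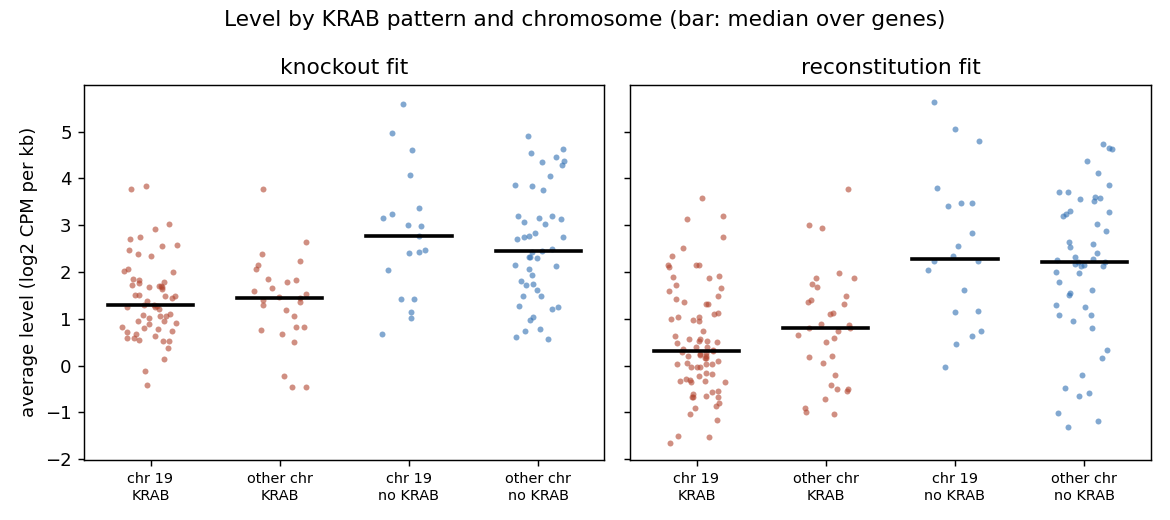
Average level in log2 CPM per kb (vertical axis) of each ZNF500 to ZNF899 gene (points), by KRAB pattern (red with, blue without) and chromosome, in the knockout fit (left) and the reconstitution fit (right), with bars at the medians over genes. In the reconstitution fit the medians were 0.31 (chromosome 19) and 0.80 (others) with the pattern, and 2.29 and 2.22 without it.

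Finger number and level were weakly related. Across 154 genes of the knockout fit the Spearman correlation of finger number with the level per kb was -0.28, and across 187 genes of the reconstitution fit -0.30. Among genes with a KRAB pattern it was -0.05 and -0.12, and among those without it -0.28 and -0.29. The points share libraries, and their finger number goes with coding length and KRAB pattern, so these values are descriptions. In the knockout fit, genes with 0 to 4 fingers and no KRAB pattern had a median of 3.12 log2 CPM per kb (19 genes), those with 5 to 9 fingers 2.45 (22 genes), those with 10 to 14 fingers 1.57 (16 genes) and those with 15 or more 2.77 (9 genes). The medians without the pattern therefore did not fall steadily with finger number.

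The genes of the corepressors stood higher. All 16 corepressor genes examined were listed in both fits, and 12 of 16 lay above the median of all genes in each. TRIM28, the adaptor that KRAB domains bind, was at 8.36 log2 CPM per kb in the knockout fit and 8.21 in the reconstitution fit, percentile 98.7 in both. SETDB1, which methylates histone H3 at these sites, was at 3.32 and 3.40, and its partner ATF7IP at 2.52 and 2.31, the lowest of the list. The heterochromatin proteins CBX1 (5.74 and 5.55), CBX3 (7.13 and 6.09) and CBX5 (5.01 and 5.02) were high. The silencing complex genes MPHOSPH8 (3.86 and 3.07), TASOR (3.71 and 2.73), PPHLN1 (3.34 and 2.91) and MORC2 (3.34 and 3.79) lay near the middle of the tables. The maintenance methyltransferase DNMT1 (5.94 and 6.15), its partner UHRF1 (6.11 and 5.99), the deacetylases HDAC1 (6.28 and 6.27) and HDAC2 (4.58 and 3.98) and the remodellers CHD3 (3.95 and 4.43) and CHD4 (5.36 and 6.06) completed the list. The median corepressor level was 4.79 and 4.73 log2 CPM per kb.

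Neighbouring genes were compared along the chromosomes by gene order, with protein coding genes that lie between them ending a run. Of the 243 genes, ZNF722 and ZNF892 had no place in this order. The others formed 36 runs of 2 or more, which held 108 genes, and 25 of these runs were on chromosome 19. There were 5 runs of 5 or more genes, 4 of them on chromosome 19 and 1 on chromosome 7.

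The run from ZNF610 to ZNF701 had 7 genes, each with a KRAB pattern, of which 3 were listed. ZNF528 was at 1.25 log2 CPM per kb in the knockout fit and 1.42 in the reconstitution fit. ZNF808, whose loss in humans disturbs the development of the pancreas, was at -0.16 and ZNF701 at -1.17 in the reconstitution fit. ZNF610, ZNF880, ZNF534 and ZNF578 were not listed. The run from ZNF875 to ZNF571 also had 7 genes with the pattern. In it ZNF875 was at 1.86 and 2.16, ZNF527 at 0.37 and -0.34, ZNF569 at 2.57 and 0.48 and ZNF793 at 0.90 and 0.20 in the knockout and reconstitution fits. ZNF570 was listed at -0.66 in the reconstitution fit only, and ZNF540 and ZNF571 were not listed.

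The run from ZNF524 to ZNF581 stood apart in its levels. None of its 5 genes had a KRAB pattern, and all were listed in both fits, with medians of 3.25 and 3.47 log2 CPM per kb. ZNF524 was at 3.15 and 3.47, ZNF865 at 3.25 and 3.41, ZNF784 at 2.47 and 2.23, ZNF580 at 4.61 and 5.05 and ZNF581 at 4.96 and 4.81. In the run from ZNF845 to ZNF813, also of 5 genes but all with the pattern, the medians were 0.97 and -0.55. Here ZNF845 was at 1.27 and -0.34, ZNF525 at 0.68 and -0.68, ZNF765 at 0.53 and -0.55 and ZNF761 at 1.71 and 0.50, and ZNF813 was listed at -1.53 in the reconstitution fit only. The lowest gene of the first of these runs lay above the highest of the second in both fits.

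In the run on chromosome 7, from ZNF727 to ZNF680, only 1 of 5 genes was listed, and the others have no level here. ZNF680 was listed at -0.50 log2 CPM per kb in the reconstitution fit, and ZNF727, ZNF735, ZNF679 and ZNF736 were not listed.

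The fits were normalized separately, and groups, vector and libraries differ between them, so a difference between them cannot be told apart from any of these and was not tested. Over the 154 genes in both, the levels per kb had a Spearman correlation of 0.89 and a Pearson correlation of 0.91. Against a median difference of -0.12 log2 CPM over the 10976 genes in both fits (reconstitution minus knockout), the zinc finger genes had -0.27, and 96 of 154 (62.3%) lay below the median of all genes. Genes with a KRAB pattern had a median difference of -0.54, with 63 of 88 (71.6%) below the median of all genes. Genes without it had -0.13, with 33 of 66 below. Only genes listed in both fits have a difference. The lowest log2 CPM of any gene was 1.70 in the knockout fit and 0.40 in the reconstitution fit. Weakly expressed genes thus entered only where their knockout average was high enough, which can make these differences more negative. Left out this way were 33 zinc finger genes, of which 27 had a KRAB pattern. The part of this selection, also in the differences by GC content below, was not tested.

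The difference moved with base composition. The median GC content of the longest transcript was 42.3% with a KRAB pattern and 51.7% without it, against 47.5% over all genes of the knockout fit. Across the 154 genes, the Spearman correlation of GC content with the difference between the fits was 0.73 and the Pearson correlation 0.63, and across 10742 genes with a transcript the Spearman correlation was 0.48. It was 0.73 among the genes with a KRAB pattern and 0.54 among those without it. Of 105 genes with under 50% GC, 83 lay below the median difference of all genes, with a median of -0.64 log2 CPM, and of 49 genes with 50% or more, 13 did, with a median of 0.08. The part of GC content in the difference was not tested.

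**Figure D2:**
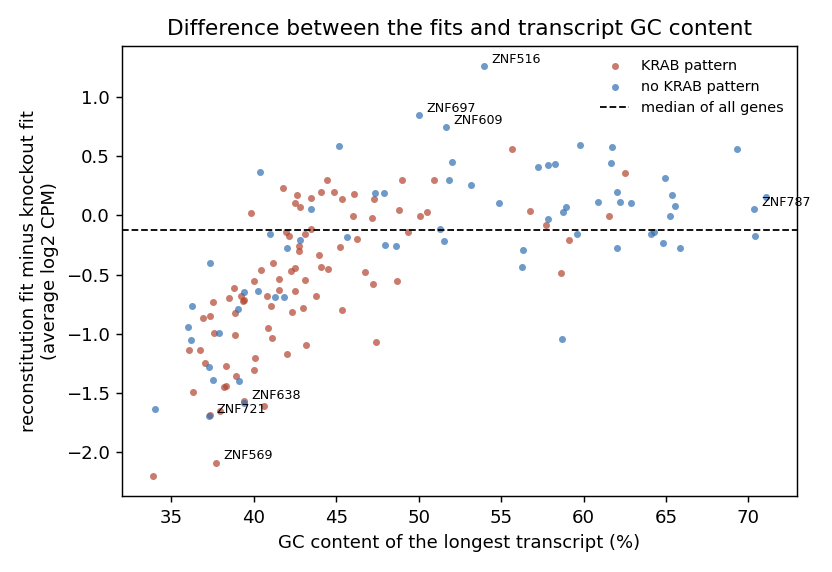
Reconstitution fit minus knockout fit in average log2 CPM (vertical axis) against the GC content of the longest transcript in percent (horizontal axis) for the 154 genes in both fits, with red points for a KRAB pattern, blue points for none and a dashed line at the median of all genes, -0.12. Points below 40% GC lie mostly under the line, and the Spearman correlation was 0.73.

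The level itself also moved with GC content. The Spearman correlation of GC content with log2 CPM per kb was 0.37 in the knockout fit and 0.53 in the reconstitution fit. Among genes with a KRAB pattern it was 0.15 and 0.30, and among those without it 0.32 and 0.53. Within the genes under 50% GC, the medians with and without a KRAB pattern were 1.28 and 2.32 in the knockout fit and 0.34 and 1.16 in the reconstitution fit. Within those of 50% or more they were 1.96 and 2.77, and 1.74 and 2.93. The median with a KRAB pattern was thus the lower one on both sides of 50% GC. In each fit these gaps were narrower than those over all the genes, -1.08 and -1.75. With 50% GC or more, 10 and 13 genes had the pattern in the knockout and reconstitution fits, against 39 and 40 without it. Under 50% GC the numbers were 78 and 102, against 27 and 32. The part of GC content in the KRAB difference was not tested.

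Most of the single genes with the largest differences showed the same split. By percentile within their table, the median gene of the family stood 4.65 points higher in the reconstitution fit, whose table reaches lower levels, against 3.54 over all genes in both fits. ZNF638 had the most negative percentile difference, -23.9 points, at 7.23 log2 CPM in the knockout fit and 5.64 in the reconstitution fit. ZNF569, the KRAB gene whose fingers are shown above, had 4.59 log2 CPM in the knockout fit and a difference of -2.09 between the fits. ZNF721 had 4.94 and 3.25, ZNF714 5.78 and 4.39, and ZNF644, a partner of histone H3 methyltransferases, 5.60 and 4.32. The GC content of these 5 transcripts was 37.3% to 39.4%. ZNF692, next in this order, went against the split, with 58.7% GC, a percentile difference of -13.6 points and a difference of -1.04 log2 CPM. In log2 CPM the most negative difference among the 154 genes in both fits was that of ZNF681, -2.20, with a percentile difference of -3.17 points. In the other direction ZNF516, a cofactor in the formation of brown fat, stood 28.3 points higher, at 3.99 and 5.24 log2 CPM. ZNF609, known for its circular RNA, had 5.62 and 6.36, ZNF697 3.61 and 4.46, ZNF646 4.64 and 5.24, and ZNF775 2.89 and 3.45. Their transcripts had a GC content of 50.01% to 69.3%. ZNF512, with a percentile difference of 19.6 points and a difference of 0.59 log2 CPM, went against the split, at 45.2% GC. ZNF787, with its GC-rich fingers, had 6.53 and 6.58.

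The reconstitution fit listed 33 genes that the knockout fit did not, and the knockout fit listed none of its own. Of the zinc finger genes, 154 of 187 in the reconstitution fit were also in the knockout fit, which held 154. Over all genes, 10976 of the 12342 in the reconstitution fit were also in the knockout fit, which held 11102. Of the 33, 27 had a KRAB pattern and 21 lay on chromosome 19. Their average log2 CPM ran from 0.88 to 2.62, with a median of 1.41, and 22 lay below 1.70, the lowest value of any gene in the knockout fit. Genes without a KRAB pattern were listed in both fits in 91.7% of cases and those with it in 76.5%.

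Sequence shared with other genes limits what some of these values measure. In 14 genes, at least 10% of the 50-base words of the longest transcript also occur in transcripts of a gene elsewhere, and 13 of these have a KRAB pattern and 11 are on chromosome 19. ZNF658 shared the most, 67.9%, all with ZNF658B. ZNF587 shared 20.6%, mostly with ZNF417, its near copy that is likewise known to bind endogenous retroviruses. ZNF799 shared 20.6%, mostly with ZNF443, ZNF552 18.4% and ZNF814 17.3%, both mostly with ZNF587B. At 63 genes no word was shared. The levels of ZNF658 (0.83 and -0.20 log2 CPM per kb), ZNF587 (2.93 and 3.13), ZNF552 (2.35 and 2.34), ZNF814 (2.55 and 2.10) and ZNF799 (0.03, reconstitution fit only) are therefore uncertain. The share of words does not give the size of that uncertainty. Exons of 59 genes overlap those of another gene on the same strand and of 59 on the opposite strand, 101 genes in all, and the library kit is not described as one that marks strand.

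The averages gave an estimate of the reads behind each value. At the low end the CPM values of the knockout fit fell on steps of 0.130 CPM per read, which corresponds to 7.69e+06 reads over all its libraries, with 96.1% of the low genes within 0.1 read of a whole number. The step of the reconstitution fit was 0.0328 CPM, for 3.05e+07 reads, with 67.1% of the low genes that near to a whole number, so this estimate is less firm. By these steps the zinc finger genes had between 42 reads (ZNF835) and 1173 (ZNF664) in the knockout fit, with a median of 99.6. In the reconstitution fit they had between 56 (ZNF547) and 3913 (ZNF664), with a median of 254.6. A constant offset of the steps was allowed for in the 96.1% and 67.1% but was not taken off these read numbers. They therefore include any constant added to the counts before averaging. For 42 reads the exact 95% Poisson interval is 30.3 to 56.8 reads, or -0.47 to 0.43 on the log2 scale, and covers counting error only. For the 1173 reads of ZNF664 it is -0.08 to 0.08 on that scale, and for its 3913 reads in the reconstitution fit -0.05 to 0.05. Neighbours in the order of levels that differ by less than the interval at their own read number were not told apart at this depth.

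The cells were checked against markers. Of 7 hepatocyte markers, SERPINA1 alone was listed, in the reconstitution fit at 0.06 log2 CPM per kb. ALB, APOA1, APOB, TTR, HNF4A and AFP were not listed. The epithelial keratins KRT8 and KRT18 were high, with EPCAM, CDH1 and KRT19 not listed, and all 5 mesenchymal markers were listed, VIM at 10.3 in both fits. PTPRC and CD3E of leukocytes and the 3 endothelial markers were not listed, and CD68, a lysosomal gene of macrophages that other cells also use, was. The average of the targeted gene USP28 was 5.15 log2 CPM in the knockout fit and 9.79 in the reconstitution fit, where a vector supplied it in 2 of 3 groups, and as an average it does not check the labels of single samples.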

How the data were processed

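Per the labels, total RNA of 5 groups of HLF cells was sequenced. The submitters' processing notes name bcl2fastq 2.20, STAR 2.5.4, hg19 and edgeR 3.26.8. The counting tool, the annotation, the filter on low genes and the number of libraries are not given in the sources used here. The authors deposited 3 tables of comparisons with an average log2 CPM per gene, which is used here, and with log2 fold changes, F statistics (2 tables), p-values and adjusted p-values of their own comparisons, which are not used. In the table of USP28-KO the header stands 1 column to the left of the values. Unmatched columns of per-sample values numbered 0.

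Transcripts of GENCODE 29 (GRCh38, not the authors' build) were matched by gene identifier, else by name, to 97.8% and 96.7% of the genes of the knockout and reconstitution fits. Lengths, GC content, reading frames, patterns and strand-neutral shared words were computed from them with Python 3.11.15, numpy 2.4.6, pandas 2.3.3 and scipy 1.17.1, and the counters were tested on simulated data. The KRAB pattern was an acidic residue, V, 3 residues, F or L, 3 residues, E or Q and W. Runs were read from the order of protein coding genes in GENCODE. Genes were named by rule: in each fit the 10 highest and 5 lowest per kb, the 5 with the largest percentile difference in each direction, the 3 with the most and the fewest fingers, the 5 with the most shared words, the runs of 5 or more and the corepressors. ZNF835 and ZNF547, the genes with the fewest reads, ZNF692 and ZNF512 were chosen after their values were seen. The members and lists were chosen with earlier results of these data known. The comparisons by GC content, with their boundary at 50%, were not planned in advance. Averages pooled over groups allow no test between them, and none was made.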

Additional observations from a re-analysis of the deposited data

How the results depend on the processing

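The number of genes listed was 154 in the knockout fit, 187 in the reconstitution fit and 124 at an average log2 CPM of at least 3. The share above the median of all genes ran from 11.7% to 14.5%. A KRAB pattern was found in 115 genes, in 98 with a stricter and in 119 with a looser pattern. The median finger number was 10 with the strict spacing too. The number of genes with at least 10% shared words was 14 with 50-base words, 39 with 36, 5 with 75 and 3 with 100, and 9 when all transcripts were used. The KRAB difference of the knockout fit (-1.08 log2 CPM per kb) kept its sign under each alternative, all added after seeing the data. It was -0.51 with the median transcript length, -1.16 without length scaling, -0.97 with a stricter and -1.31 with a looser pattern, -1.09 at an average log2 CPM of at least 3 and -1.20 without the genes that share sequence. In the reconstitution fit it was -1.75, and -1.49 over the genes listed in both. No paired analysis was possible because each group is 1 sample and the averages pool the groups. No replicate could be left out for the same reason.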
